A study of Mus musculus with 6 samples.

Results

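The 7 genes followed here handle calcium in heart muscle, Ryr2, Atp2a2, Pln, Casq2, Slc8a1, Cacna1c and Hrc. They were taken by gene symbol from the 12560 rows of a mouse RNA sequencing table, and all 7 had a row. The samples were labelled as chondrocytes, the cells of cartilage, with 3 control libraries and 3 libraries of the genotype Eldr cKO, Eldr being a long noncoding RNA that the series title places in chondrocyte senescence. The labels gave genotype alone, with no age, strain, Cre driver or number of animals, so a p-value here measures spread among libraries that may be technical only. The 7 genes were chosen by the FPKM levels of heart muscle genes already seen in these libraries, so their levels are a description and carry no test. Eldr was not analysed here, since the table holds no row for it, and the genotype labels could not be checked on it.

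In a heart muscle cell each beat opens L-type calcium channels of the surface membrane, and the calcium that enters opens the ryanodine receptor of the sarcoplasmic reticulum, the internal calcium store. The released calcium starts contraction. Relaxation follows when a calcium pump returns the ion to the store and a sodium-calcium exchanger carries it out of the cell. Buffer proteins inside the store and a small inhibitor of the pump set how much is held and how fast it returns.

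The label chondrocyte was checked against its markers. Of 14 chondrocyte genes, 9 were without a row, among them Col2a1 and Acan, and 0 of the other 5 exceeded 0 throughout the 6 libraries. Their summed level ranged from 0.616 FPKM in control 2 to 12.5 FPKM in Eldr cKO 1 (FPKM, the number of fragments divided by transcript length and by library total). All 13 cardiomyocyte markers had a row, and their sum ranged from 1199 FPKM in control 3 to 10972 FPKM in control 1. Summed markers of other cells ranged from 76.5 to 191 FPKM for fibroblasts, from 11.6 to 175 FPKM for endothelium, from 115 to 385 FPKM for macrophages and from 319 to 744 FPKM for erythroid cells. Depth, estimated from FPKM steps worth 1 fragment, came to 464360, 79492 and 130367 fragments for controls and to 191543, 52180 and 55987 for Eldr cKO, each in replicate order as for all values that follow. In bulk samples such as these, fewer cells of a type and less RNA per cell cannot be told apart.

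Sequence just before the start of Casq2, Pln and Hrc is shown because the levels of these genes followed a common order over the libraries, described further on, and because these windows held a match to a motif of heart muscle factors. Slc8a1 met both reasons but is not printed, since the RefSeq start of its window (81738387) lies far outside its row, which runs to 81649607. For Hrc the RefSeq start (45335269) also lies outside the row, but close to its first base (45335290). Of the 7 genes, 6 had a promoter window in RefSeq (GRCm38.p6), and Atp2a2 was the other. Over the 250 bases before each start, both strands were searched for the MEF2 consensus, for CATTCC (MCAT, bound by TEAD factors), for GATAA (GATA factors) and for CANNTG (E-box). Capitals mark the MEF2 match in Casq2 and the GATAA matches in Pln and Hrc that fall within the printed bases. A further GATAA match of Pln, from -183 to -179 relative to the RefSeq start on the other strand, lies before them. Each line holds 110 bases of the plus strand, 5′ to 3′, and ends before the first base of both the RefSeq and the GENCODE M21 gene.
Casq2, chr3:102086305-102086414: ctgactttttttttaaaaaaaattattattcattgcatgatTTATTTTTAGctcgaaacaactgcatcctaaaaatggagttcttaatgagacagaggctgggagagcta
Pln, chr10:53337557-53337666: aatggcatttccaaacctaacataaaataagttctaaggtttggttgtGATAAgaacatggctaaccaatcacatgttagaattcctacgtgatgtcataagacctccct
Hrc, chr7:45335159-45335268: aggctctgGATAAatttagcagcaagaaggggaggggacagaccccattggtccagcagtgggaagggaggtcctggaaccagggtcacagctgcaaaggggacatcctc

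The MEF2 match of Casq2 ran from -69 to -60 relative to the RefSeq start. Of 6 genes with a window, 1 held a MEF2 match, 3 held GATAA (Pln, Hrc and Slc8a1), 0 held CATTCC and 6 held an E-box. The same matches were found in 2.92%, 22.6%, 12.6% and 66.2% of 32851 RefSeq promoter windows. These shares are per window, over 27025 genes, while the 6 genes had 8 windows and were counted by gene. No matched motifs marked by capitals overlapped in the printed stretches. These matches are descriptions of letters, and binding was not measured. The common order of libraries was shared by all 7 genes, also by those without a MEF2 or GATAA match. A link between that order and the motifs was not tested.

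Atp2a2 encodes SERCA2, the calcium pump of the sarcoplasmic reticulum (ENSMUSG00000029467.15, GRCm38 chromosome 5, 122453513 to 122502225, minus strand). Atp2a2 read 923, 232 and 78.0 FPKM with the control genotype and 556, 103 and 118 FPKM with Eldr cKO. It had the highest level of the 7 genes in each of the 6 libraries. The first library of each genotype was several times above the others, and the groups overlapped. In each library Atp2a2 alone made up between 37.8% and 52.3% of the summed FPKM of the 7 genes.

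Pln encodes phospholamban, the small membrane protein that inhibits SERCA2 until it is phosphorylated (ENSMUSG00000038583.13, chromosome 10, 53337667 to 53345987, plus strand). Pln gave 303, 102 and 16.3 FPKM across control libraries, against 215, 98.7 and 101 FPKM across Eldr cKO libraries. Control 3 was the low library, on at most 4.97 estimated fragments, and the 3 Eldr cKO values lay between the highest and the lowest control. The level of Pln as a percent of that of Atp2a2 in the same library was 32.8%, 43.8% and 20.9% in the controls and 38.6%, 96.3% and 84.9% in Eldr cKO. The inhibitor thus came closest to its target pump in Eldr cKO 2 and 3, while Eldr cKO 1 lay within the range of the controls. This ratio was chosen after its values were seen and was not tested.

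Sarcolipin, encoded by Sln, is the related small inhibitor of the pump in atrial and skeletal muscle. Sln stood at 78.4, 0 and 0 FPKM under control and 96.9, 14.5 and 0 FPKM under Eldr cKO. It lay below Pln in every library. Of 9 genes of calcium uptake and its small regulators, 5 were in the table, and of these Atp2a2 and Pln (2 genes) were detected in each library.

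Ryr2 encodes the ryanodine receptor of heart muscle, the channel through which stored calcium leaves the sarcoplasmic reticulum (ENSMUSG00000021313.16, chromosome 13, 11553102 to 12106945, minus strand). Ryr2 read 86.7, 20.7 and 5.20 FPKM with the control genotype and 46.7, 15.8 and 4.12 FPKM with Eldr cKO. Replicate 3 of each genotype was low, and the highest value was 21.04 times the lowest. On the longest annotated transcript of 16814 bases, the value of Eldr cKO 3 stands on at most 3.88 estimated fragments.

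Casq2 encodes cardiac calsequestrin, the main calcium buffer inside the store (ENSMUSG00000027861.13, chromosome 3, 102086415 to 102146514, plus strand). Casq2 gave 156, 66.7 and 45.7 FPKM across control libraries, against 86.8, 44.7 and 26.2 FPKM across Eldr cKO libraries. Its highest value was 5.94 times its lowest, the narrowest range among the 5 genes above 0 in all libraries. Casq2 was 1.79 times Ryr2 in control 1 and 1.86 times in Eldr cKO 1, against 8.78 times in control 3 and 6.36 times in Eldr cKO 3. The buffer and the channel therefore did not keep 1 ratio over the libraries, and replicate 3 of both genotypes had the highest ratios. The value of Casq2 stands on at most 15.2 estimated fragments in control 3 and 3.75 in Eldr cKO 3.

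Hrc encodes the histidine-rich calcium binding protein of the store, which binds both the pump and the release complex (ENSMUSG00000038239.11, chromosome 7, 45335290 to 45338974, plus strand). Hrc stood at 213, 33.6 and 0 FPKM under control and 166, 0 and 24.4 FPKM under Eldr cKO. Each genotype had 1 library listed at 0. In Eldr cKO 2, 1 fragment on its longest transcript was worth 7.95 FPKM, and in control 3 it was worth 3.18 FPKM. Lower levels would rest on less than 1 estimated fragment there, so a value of 0 does not show absence.

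Slc8a1 encodes NCX1, the sodium-calcium exchanger of the surface membrane (ENSMUSG00000054640.14, chromosome 17, 81388691 to 81649607, minus strand). Slc8a1 read 197, 25.7 and 2.63 FPKM with the control genotype and 81.9, 6.53 and 0 FPKM with Eldr cKO. In both genotypes replicate 1 was high and replicate 3 lowest. On its longest transcript it stands on at most 6.34 estimated fragments in control 3 and 6.29 in Eldr cKO 2. As a percent of Atp2a2 in the same library, Slc8a1 was 21.4%, 11.1% and 3.37% in the controls and 14.7%, 6.37% and 0% in Eldr cKO. Its position in the deposited table is narrower than that of GENCODE M21, which runs from 81373105 to 81738377, while the other 6 genes had the same position in both.

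Cacna1c encodes the pore of the L-type calcium channel Cav1.2, through which calcium enters at each beat (ENSMUSG00000051331.15, chromosome 6, 118587240 to 119196418, minus strand). Cacna1c gave 11.7, 3.84 and 1.31 FPKM across control libraries, against 10.01, 3.14 and 2.16 FPKM across Eldr cKO libraries. It was the lowest of the 7 genes by mean level, and both groups spanned almost the same range. On its longest transcript it stands on at most 4.01, 2.25, 2.16 and 1.59 estimated fragments in control 2, control 3, Eldr cKO 2 and Eldr cKO 3.

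**Figure D1:**
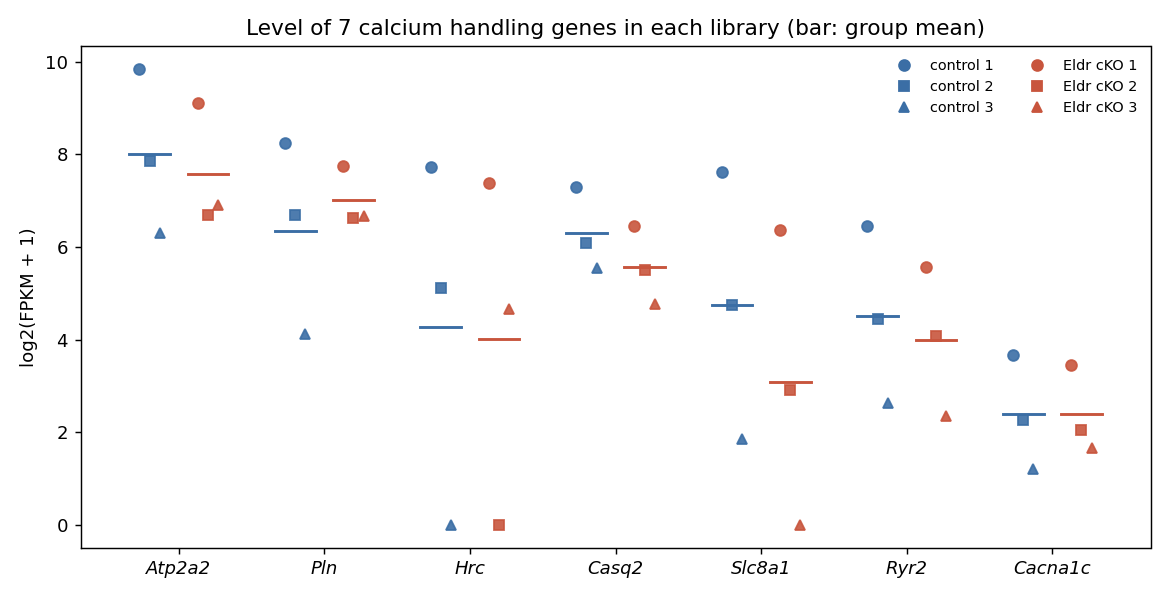
Level of each gene as log2(FPKM + 1) in the 3 control (blue) and 3 Eldr cKO (red) libraries, with a bar at the group mean, genes ordered by mean FPKM. Control 1 and Eldr cKO 1 (circles) are the 2 highest libraries for all 7 genes, and the points at 0 are Hrc in control 3 and Eldr cKO 2 and Slc8a1 in Eldr cKO 3.

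By mean FPKM the order was Atp2a2 (335), Pln (139), Hrc (72.7), Casq2 (70.9), Slc8a1 (52.4), Ryr2 (29.9) and Cacna1c (5.36). FPKM is scaled by length, so these levels can be set side by side. Atp2a2 was above Pln, Pln above Hrc and Ryr2 above Cacna1c in 6 of 6 libraries. The middle of the order was not stable: Hrc was above Casq2 in 2 libraries, Casq2 above Slc8a1 in 5 and Slc8a1 above Ryr2 in 3. The mean difference of Slc8a1 and Ryr2 in log2(FPKM + 1) was -0.33 with an SD of 1.34 over the 6 libraries, and that of Hrc and Casq2 was -1.79 with an SD of 2.96, so neither pair differed beyond its spread.

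All 7 genes put the libraries in the same order at the top. Control 1 was highest, Eldr cKO 1 second and control 2 next for each of them. The first 2 of these places were taken that way by 9 of the 13 cardiomyocyte markers and by 9.94% of the 9007 tested genes. In either order, control 1 and Eldr cKO 1 lay above the other 4 libraries for 7 of 7 genes and for all 13 cardiomyocyte markers. This was true of 23.6% of tested genes. These libraries are also the 2 with the highest estimated depth, and their cardiomyocyte marker sums of 10972 and 9668 FPKM compare with 1199 to 2703 FPKM in the other 4. The part of depth in this order was not tested. Relative to the summed FPKM of all genes other than mitochondrial and repeat-rich ones, control 1 was still highest for 7 of 7 genes, but Eldr cKO 1 was second for 4, against 8.07% of tested genes with that order. Relative to the summed cardiomyocyte markers, control 1 was highest for 3 of 7 genes, and control 1 led with Eldr cKO 1 second for 1 of 7, against 2.91% of tested genes. Mitochondrial genes took 68.0%, 70.0% and 41.1% of all FPKM in controls and 43.6%, 33.9% and 33.8% in Eldr cKO, and repeat-rich genes 3.07%, 12.9% and 13.4% against 3.84%, 48.8% and 46.2%. Their part in the order was not tested either.

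Likeness of pattern was measured as the root mean square difference of log2(FPKM + 1) over the 6 libraries, each gene centred on its own mean. Among the members, Casq2 and Cacna1c were the closest pair (0.45), followed by Atp2a2 and Cacna1c (0.48) and by Ryr2 and Atp2a2 (0.56). The added 1 shrinks changes of low genes, so the distances of Cacna1c depend on this scale. Cacna1c stood on at most 4.01 estimated fragments in control 2, control 3, Eldr cKO 2 and Eldr cKO 3. Hrc stood at 2.05 or more from every other member. Among 3339 candidate genes averaging 5 FPKM or more, the nearest to Atp2a2 was Myh6, a myosin heavy chain of the contracting heart (0.18), then Akap6, an anchor of protein kinase A (0.28), and Pdk1, a pyruvate dehydrogenase kinase (0.30).

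The nearest gene to Ryr2 was Mybpc3, cardiac myosin binding protein C (0.33), followed by Pmpca (0.37) and Cox5a (0.39), a processing protease and a respiratory subunit of mitochondria. Casq2 was nearest to Slc25a4, the mitochondrial ADP/ATP carrier (0.25), to mt-Cytb (0.33) and to Cycs, cytochrome c (0.33). Cacna1c lay next to Mlec (0.28), Tnnc1, the troponin C of heart and slow muscle (0.29), and Actc1, cardiac actin (0.30). Pln lay next to Cd47 (0.22), Cap2 (0.27) and Mrc1 (0.38), where Mrc1 encodes the mannose receptor of macrophages. No gene came as close to Slc8a1, for which AL731706.1 (0.76), Samm50 (0.85) and Sh3bgr (0.87) were nearest, or to Hrc, for which Pcp4l1 (0.82) and D10Jhu81e (0.94) were. All these distances rest on 6 libraries that share their depth and content across genes. Some neighbours were also at the floor, where the added 1 shrinks differences. Pmpca was at 0 FPKM in control 3 and Eldr cKO 3, and Cd47 and Cap2 were at 0 FPKM in control 3. AL731706.1 was at 0 FPKM in control 3 and Eldr cKO 3, and Samm50 and Sh3bgr in these and in Eldr cKO 2. Pcp4l1 and D10Jhu81e were at 0 FPKM in control 3 and Eldr cKO 2, the libraries where Hrc was also at 0. The distances of Slc8a1 and Hrc to these genes thus rest in part on zeros.

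Set against the contractile and natriuretic genes of the same library, the sum of the calcium handling genes kept to a narrower range than in FPKM. It was 17.2%, 17.9% and 12.4% of the summed FPKM of the cardiomyocyte markers in the controls and 12.02%, 12.6% and 10.4% in Eldr cKO. The group means were 15.9% ± 2.99 (SD, n = 3) and 11.7% ± 1.13 (SD, n = 3), and the groups overlapped, control 3 lying below Eldr cKO 2. While the marker sum itself spanned 1199 to 10972 FPKM, this percent stayed between 10.4% and 17.9%. Single genes still ranged widely on this scale, Slc8a1 from 0% to 1.80%, Hrc from 0% to 1.94%, Casq2 from 0.898% to 3.81% and Ryr2 from 0.156% to 0.790%.

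For Atp2a2 the percent of the cardiomyocyte marker sum was 8.42%, 8.60% and 6.51% in the controls and 5.75%, 4.77% and 4.48% in Eldr cKO. The groups did not overlap on this scale, which was true of 1 of the 7 genes and of 4.4% of tested genes (1.13% with Eldr cKO higher, 3.26% lower). This separation was chosen here after its values were seen. It was lost when Ttn, Nppa, Myl7 and Myl4 were taken out of the marker list, which put Atp2a2 at 10.2%, 10.6% and 7.17% in the controls and at 7.43%, 5.18% and 6.25% in Eldr cKO. On that shorter list 0 of the 7 genes and 4.33% of tested genes were without overlap (1.25% higher, 3.08% lower). Pln had the opposite order of means on the first scale, 2.63% ± 1.21 in controls and 3.54% ± 1.21 in Eldr cKO (SD, n = 3), with overlapping groups. Cacna1c stayed between 0.0816% and 0.146% in all 6 libraries.

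**Figure D2:**
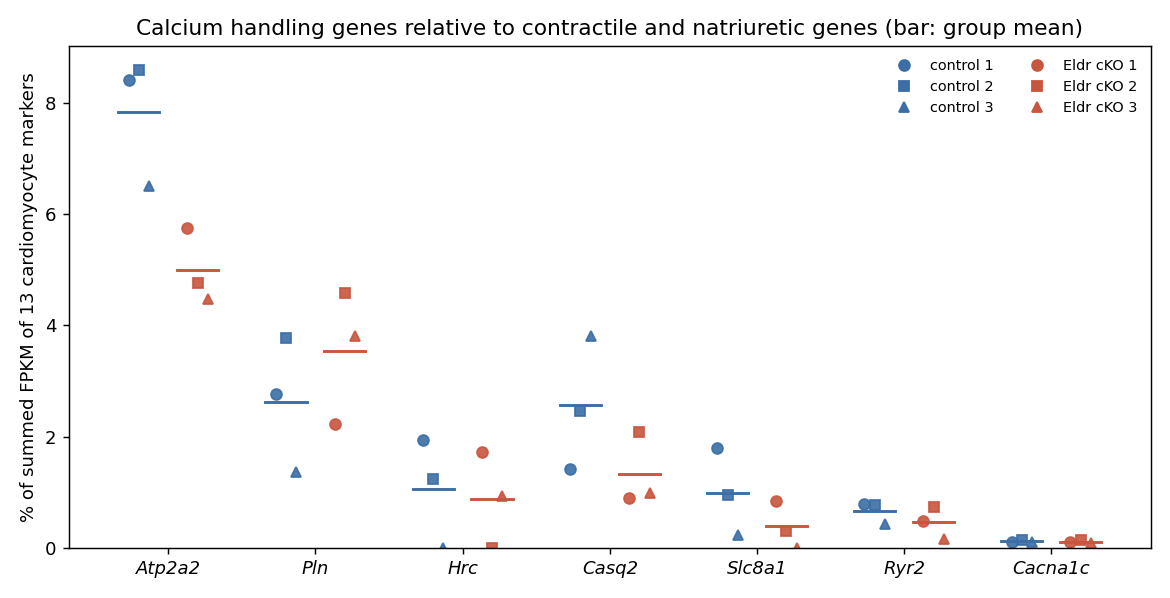
Each gene as a percent of the summed FPKM of 13 cardiomyocyte markers in the same library, with points for libraries and a bar at the group mean. The 3 control points of Atp2a2 (6.51% to 8.60%) lie above its 3 Eldr cKO points (4.48% to 5.75%), and the groups of the other 6 genes overlap.

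Several members have paralogs that serve skeletal muscle or other tissues. Ryr1, Atp2a1 and Cacna1s, the forms of fast or skeletal muscle, were not analysed here for want of a row, nor were Slc8a2 and Slc8a3. Ryr3, a ryanodine receptor of brain and several other tissues, stood at 1.82, 0 and 0.0773 FPKM under control and 0.265, 1.08 and 6.77 FPKM under Eldr cKO. Ryr2 was higher than Ryr3 in 5 of 6 libraries, the exception being Eldr cKO 3. Atp2a3 and Casq1 were above 0 in control 1 and Eldr cKO 1 alone, with at most 2.68 FPKM. Cacna1d, the pore gene of pacemaker and endocrine cells, was at most 3.76 FPKM and lay below Cacna1c in every library.

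**Figure D3:**
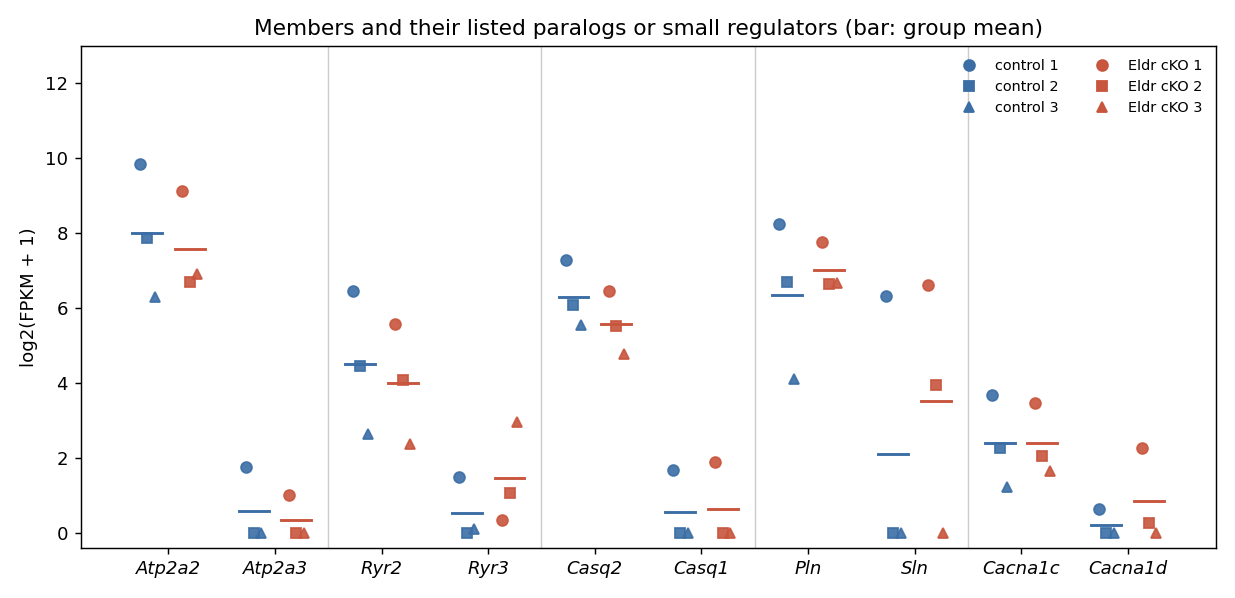
Members beside a listed paralog, and Pln beside the related inhibitor Sln, as log2(FPKM + 1) per library with a bar at the group mean. Atp2a3, Casq1 and Cacna1d stay under 4 FPKM in every library, and Ryr3 exceeds Ryr2 in Eldr cKO 3 alone.

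The partners of the release channel were present in part. The release complex list had 17 of its 19 genes in the table, 9 of them detected in each library. S100a1, a calcium sensor that binds SERCA2 and the ryanodine receptor, read 273, 54.5 and 161 FPKM with the control genotype and 264, 27.7 and 77.0 FPKM with Eldr cKO. Calm2, 1 of the calmodulin genes, was highest in control 3 (232 FPKM) and did not follow the order of Ryr2. Trdn, which encodes triadin, the anchor between calsequestrin and the channel, was at 29.9 FPKM in control 1 and at no more than 3.82 FPKM elsewhere. Jph2, which ties the store to the surface membrane, gave 26.1, 0 and 1.79 FPKM across control libraries, against 29.2, 15.8 and 0 FPKM across Eldr cKO libraries. Trdn and Jph2 fall outside the rule for named genes, and the choice to name them was made with their values in view.

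Of 12 genes of the L-type channel and its regulators, 10 were in the table. Cacna2d1, the main extracellular subunit of the channel, stood at 13.2, 6.51 and 1.87 FPKM under control and 7.001, 0.527 and 0.889 FPKM under Eldr cKO. Rrad, a small G protein that inhibits the channel, read 21.3, 8.03 and 0 FPKM with the control genotype and 13.2, 12.1 and 22.5 FPKM with Eldr cKO. Among the sodium and calcium transporters listed with Slc8a1, Atp1b1 gave 57.4, 45.1 and 9.52 FPKM across control libraries, against 47.3, 0 and 5.80 FPKM across Eldr cKO libraries.

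The comparison of both genotypes asks whether the calcium handling genes differed between Eldr cKO and control. None of the 7 passed the test. limma with Benjamini-Hochberg adjustment gave each of them an adjusted p of 1.00 over all genes tested, on log2(FPKM + 1). Of 9007 tested genes 0.0% passed an adjusted p under 0.05, and 1.5% (135 genes) had an unadjusted p under 0.05, with 0 of the 7 among them. The libraries of both genotypes overlapped for all 7 genes, against 3.94% of tested genes without overlap (1.49% with Eldr cKO higher, 2.45% lower). Relative to the genes other than mitochondrial and repeat-rich ones all 7 overlapped as well, against 5.02% without overlap (1.78% higher, 3.24% lower). Estimates are given below by role, as differences of log2(FPKM + 1), Eldr cKO minus control, with the SE and 95% interval of limma.

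For the store, Atp2a2 stood at -0.44 (SE 0.98, interval -2.37 to 1.49), Casq2 at -0.73 (SE 1.15, interval -2.98 to 1.53) and Hrc at -0.27 (SE 1.29, interval -2.80 to 2.26). The inhibitor Pln stood at 0.67 (SE 1.09, interval -1.46 to 2.80). For the channels, Ryr2 stood at -0.51 (SE 1.28, interval -3.02 to 2.01) and Cacna1c at 0.01 (SE 1.38, interval -2.70 to 2.71). The exchanger Slc8a1 had the largest difference of the 7, -1.65 (SE 1.30, interval -4.21 to 0.91). Each interval includes 0 and wide differences on both sides of it, so these libraries do not show that the levels were alike.

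Of the 7 estimates, 5 were below 0 and 2 above, with a median of -0.44, beside 4908 of 9007 tested genes (54.5%) below 0 and a median of -0.13 over all tested genes. The SE of limma came from the variance trend over genes. The SE from a gene's own libraries was larger than that of limma for Atp2a2 (1.29), Ryr2 (1.44), Pln (1.26), Slc8a1 (2.48) and Hrc (3.13). It was smaller for Casq2 (0.71) and Cacna1c (0.90). Single libraries set the direction. Without control 1, Ryr2 stood at 0.46, Atp2a2 at 0.49 and Hrc at 1.46, and without Eldr cKO 2 Hrc stood at 1.74. Pln stood at -0.45 without control 3, and Slc8a1 at -0.10 without Eldr cKO 3 and -0.20 without control 1. Casq2 and Slc8a1 were below 0 with any 1 library left out. In the authors' deposited table the p-values of the 7 genes ran from 0.365 for Casq2 to 0.995 for Cacna1c, and 1.98% of its 12560 rows had a p under 0.05.

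**Figure D4:**
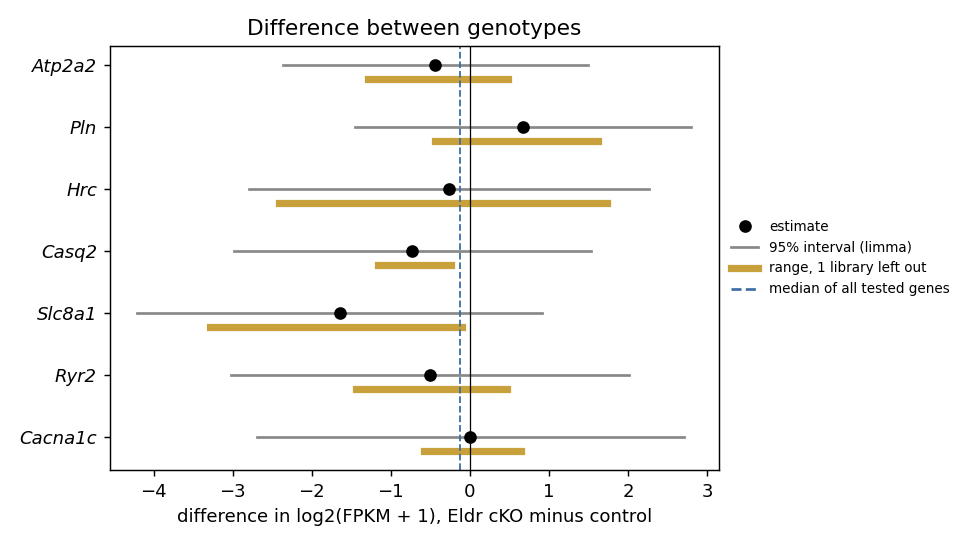
Difference in log2(FPKM + 1), Eldr cKO minus control, for each gene (black point) with the 95% interval of limma (grey) and the range of estimates with 1 library left out (gold). All 7 grey intervals cross 0, and the gold ranges of Casq2 (-1.17 to -0.23) and Slc8a1 (-3.29 to -0.10) stay below 0.

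The wider calcium pathway was described by lists drawn up with earlier results of these data known, and no gene of any list passed limma's test over all genes. Of 16 tested genes of the release complex 7 were above 0 and 9 below, with a median of -0.27. Calcium uptake had 4 above and 1 below, with a median of 1.42 over Atp2a2, Pln, Sln, Hax1 and Thbs4. That median was the estimate of Sln, and Sln, Hax1 and Thbs4 were all at 0 FPKM in control 2, control 3 and Eldr cKO 3. Atp2a2 (-0.44) and Pln (0.67), detected in each library, went opposite ways, so the median does not show a raised uptake. L-type channel genes had 2 above and 4 below (median -0.33), and the transporters of the surface membrane 3 above and 6 below (median -0.89). Genes of CaMKII, protein kinase A and phosphatases were even, 10 above and 10 below (median -0.14).

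The list named for the T-tubule and the junction with the store had 6 above and 4 below, with a median of 0.54. It also held Hrc and genes of the contractile apparatus, such as Tcap, Myom2 and Lmod2. Its counts are therefore not of T-tubule and junction genes alone. Tcap, the titin cap protein, had the only unadjusted p under 0.05 among the lists of the calcium pathway (2.88, SE 1.20, unadjusted p = 0.0169 by limma). That is 1 of 82 distinct genes tested over these lists (1.22%), beside 1.5% of all tested genes. Tcap stood at 236, 0 and 12.2 FPKM under control and 342, 40.3 and 86.6 FPKM under Eldr cKO, with overlapping groups. Lmod2, a leiomodin of heart muscle, read 250, 56.0 and 6.54 FPKM with the control genotype and 202, 19.3 and 18.0 FPKM with Eldr cKO, the same leading order of libraries as the 7 genes.

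Other calcium genes are used by most cell types. Of 12 genes of mitochondrial calcium uptake and release, all with a row, 5 of 10 tested were above 0 and 5 below, with a median of -0.12. Smdt1, a subunit of the mitochondrial uniporter, was between 16.5 and 26.8 FPKM in all 6 libraries. In Eldr cKO 2 and 3 it read 17.9 and 16.5 FPKM, where 1 fragment on 2000 bases was worth 9.58 and 8.93 FPKM. Few fragments may therefore stand behind these values. Vdac1, the main channel of the outer mitochondrial membrane, gave 127, 36.0 and 41.5 FPKM across control libraries, against 134, 27.9 and 69.0 FPKM across Eldr cKO libraries. Among store-operated and IP3 receptor genes, Itpr1, Itpr2 and Stim1 were at most 7.43 FPKM. Saraf, a regulator of store-operated entry, had the highest mean of that list and ranged from 0 to 29.0 FPKM. Of 7 tested genes of that list 3 were above 0 and 4 below, with a median of -1.02. Stim2, a calcium sensor of the endoplasmic reticulum, read 1.97, 2.45 and 3.71 FPKM under control, while all Eldr cKO values were listed at 0, without overlap but with an unadjusted p of 0.133 by limma. In the authors' deposited table its p was 0.000691. On its longest transcript 1 fragment was worth 1.06, 3.88 and 3.62 FPKM in Eldr cKO 1, 2 and 3, so the control levels lay near or under 1 fragment in Eldr cKO 2 and 3. Itpr1 in the same list (lower in Eldr cKO) and Ppp3cb, a calcineurin subunit (higher), were the other genes of the calcium lists without overlap. These 3 genes are 3.66% of the 82 distinct genes tested over the calcium lists, near the 3.94% of all tested genes. Stim2 and Ppp3cb were chosen after their values were seen.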

How the data were processed

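Total RNA of 3 control and 3 Eldr cKO libraries was measured by RNA sequencing. FPKM values were made by the authors. The submitters' processing notes name StringTie, cutadapt and the aligner HISAT2 (2.0.5), and the human build hg19, while gene IDs and positions are mouse. Of the 7 genes, 6 had the GENCODE M21 position on GRCm38. In the authors' deposited table, the group columns held means of log2(FPKM + 1), the fold was the antilog of their difference, and p-values and q-values came beside them. Per the labels' protocols RNA was enriched by poly(A) selection or removal of ribosomal RNA; the choice for each library is not given.

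Depth was estimated from genes with 1 annotated transcript, as the total at which most values, within 3%, stand at 1 fragment. Fragments behind a value are an upper estimate from the longest transcript. The 1-fragment level is no hard floor, since some listed values lie under it. Sri was at 0.0557 FPKM in control 2, where 1 fragment on 2000 bases was worth 6.29 FPKM. The test was limma 3.58.1 (R 4.3.3), for genes averaging 1 FPKM or more, on log2(FPKM + 1), a scale that shrinks changes of low genes, with a variance trend and genotype as factor (threshold 0.05). limma estimated infinite prior degrees of freedom, and intervals use the normal distribution. The code was tested on simulated data. Members and lists were chosen with earlier results of these data known. Named genes were the members, up to 4 of each list with the highest mean, paralogs, and 3 genes of most like pattern per member. Alternatives were other pseudocounts, filters, scalings, variance estimates and weights, each library left out, and the replicate number as a block. Tables were handled with Python 3.11.15 and pandas 2.3.3. Levels relative to genes other than mitochondrial and repeat-rich ones, and counts of groups without overlap on each scale, were added after seeing the data. Some genes that the rule names are not reported here.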

Additional observations from a re-analysis of the deposited data

How the results depend on the processing

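Over 16 alternative fits per gene, 0 of 112 recomputed values of the 7 genes passed the threshold, the smallest adjusted p of limma being 0.803. The sign changed in 13, of which 11 left out a library. The other 2 were Cacna1c, at -0.23 after median centring and -0.52 with array quality weights. The filters, the robust variance estimate and the replicate block leave each difference as it was, so their values could not change sign. With 1 library left out the differences in log2(FPKM + 1) ranged from -1.45 to 0.46 for Ryr2, from -1.29 to 0.49 for Atp2a2, from -0.45 to 1.62 for Pln, from -1.17 to -0.23 for Casq2, from -3.29 to -0.10 for Slc8a1, from -0.58 to 0.65 for Cacna1c and from -2.41 to 1.74 for Hrc. The median of the 7 ranged from -1.29 to 0.49, and it was -1.19 with array quality weights. These weights also moved Slc8a1 to -3.23, Ryr2 to -1.39, Casq2 to -1.19, Atp2a2 to -1.13, Hrc to -1.27 and Pln to 0.20. Slc8a1 was -2.67 with a pseudocount of 0.1 and -2.69 after rescaling, Hrc was -0.48 after rescaling and -0.50 after median centring, and median centring gave Atp2a2 -0.67 and Pln 0.44. Quantile normalization gave Atp2a2 -0.27. Over all genes, calls ranged from 0 to 2 higher and from 0 to 2 lower with 1 library left out. There were 2 higher and 1 lower after rescaling without mitochondrial and repeat-rich genes, which also raises values against the filter and pseudocount, and 2 higher and 4 lower with array quality weights. The causes were not tested. With the shorter marker list the share of the heart muscle sum was 18.9% in controls and 14.6% in Eldr cKO. Same-numbered libraries deviated together with correlations of 0.28, 0.15 and 0.095, and each control correlated best with its own number. With the replicate number as a block the calls stayed at 0 higher and 0 lower. In this balanced design the block cannot move the differences, so only their SE could change. The SE of limma fell to 0.60 for Atp2a2, 0.67 for Casq2, 0.77 for Ryr2 and 0.82 for Pln. For Slc8a1 and Cacna1c it fell to 0.78, and for Hrc it rose to 1.81. Depth limits Cacna1c, at no more than 4.01 estimated fragments in 4 libraries, and Hrc, at no more than 6.45 in 4 libraries and 0 in 2 of these. Some libraries of other genes are limited too, with at most 4.97 fragments for Pln in control 3. Ryr2 had at most 3.88 and Casq2 at most 3.75 in Eldr cKO 3. Slc8a1 had at most 6.34 in control 3, 6.29 in Eldr cKO 2 and 0 in Eldr cKO 3.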
